A study of Mus musculus with 4 samples.

Results

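C-type lectin receptors were described in lung macrophages of tumor-bearing mouse chimeras, by RNA-seq of 4 libraries. The members were chosen by gene name alone: every Clec gene with a number after the stem, Cd209a to Cd209g, Mrc1 and Mgl2, which gave 38 of the 27433 rows of the table. All recipients were KrasLSL-G12D/+ Lkb1fl/fl (KL) mice, in which Cre given by an adenovirus (Ad-Cre) through the nose starts lung tumors. Every recipient was lethally irradiated and received marrow with both Tmem173 alleles floxed, so each group carries the floxed gene and the recipient's own genotype. In the WTKL group (2 libraries) the marrow was Tmem173fl/fl without Cre. The LYZKL group (2 libraries) received Tmem173fl/fl;Lyz2-Cre marrow, in which Cre is expressed from the lysozyme locus, mainly in macrophages and neutrophils. Tmem173 encodes STING, the adaptor of cytosolic DNA sensing. Since the WTKL marrow held no Cre, loss of Tmem173 and the Cre allele in Lyz2 cannot be told apart. As labelled, recipient cells that outlive irradiation carry neither the floxed gene nor Lyz2-Cre, and their share was not measured. Cells positive for CD11b and CD64, negative for Ly6G and low for Siglec-F were sorted 8 weeks after the virus. The labels do not tie the 2 libraries of a group to different mice, so the p-values speak for the variation among these 4 samples, part or all of which may be technical. Ages were not given, and the 4 libraries carry the same batch label.

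C-type lectin receptors share a fold that in many members binds sugars in a calcium-dependent way, and others bind lipids, proteins or debris of dead cells. On macrophages, one class activates the kinase Syk, either through a tyrosine motif in its own tail (a hemITAM) or through the adaptors Fc receptor gamma chain and DAP12, and Card9 then links Syk to NF-kB and cytokine genes. Another class carries an inhibitory motif (ITIM) that recruits the phosphatases Shp1 and Shp2. A further class, with the mannose receptor and the macrophage galactose-type lectins, takes up glycoproteins and is a familiar marker of IL-4-stimulated macrophages. Most of the myeloid members lie in gene clusters on mouse chromosome 6.

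The values are FPKM, reads scaled by gene length and library total, so levels can be set beside each other between genes. The library totals that the low values imply ran from 15466117 to 22867836 reads, with the LYZKL totals inside the range of the WTKL ones. The targeted gene followed the labels: Tmem173 measured 15.4 and 15.2 FPKM in WTKL against 5.02 and 4.75 FPKM in LYZKL (limma adjusted p = 0.0452). Macrophage genes were abundant in every library, for example Csf1r at 101, 97.0, 94.3 and 98.9 FPKM (WTKL 1, WTKL 2, LYZKL 1, LYZKL 2, the order used throughout), whereas Lyz2, whose locus carries Cre in LYZKL, read 9560, 10232, 2614 and 3650 FPKM. Markers of other cells differed between the groups. The 16 neutrophil markers summed to 2674, 2114, 6213 and 4128 FPKM, with Ly6g and Camp averaging under 1 FPKM, and the 16 T and NK cell markers to 118, 112, 65.4 and 83.9 FPKM, with Nkg7, Ncr1 and Klrb1c averaging under 1 FPKM.

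Of the 38 members, 20 were expressed, averaging 1 FPKM or more across the 4 libraries, and 18 were below. The expressed members averaged from 1.28 to 554 FPKM and were headed by receptors of the activating class. Clec7a, the beta-glucan receptor Dectin-1, stood alone at a mean of 554 FPKM, rank 76 among all rows. Another 5 members exceeded 100 FPKM on average: Clec4n (Dectin-2) at 159, Mrc1 (the mannose receptor CD206) at 133, Clec5a (MDL-1) at 126, Clec4d (MCL) at 118 and Clec4e (Mincle) at 105 FPKM. Clec12a and Clec4a3 lay between 50 and 100 FPKM, Mgl2, Clec4a2 and Clec4a1 between 10 and 50, and the 9 others between 1 and 10. Clec7a was separated from Clec4n in every library (lowest 517 against highest 172 FPKM). The values of Mrc1, Clec5a, Clec4d and Clec4e overlapped from each to the next, so their order does not hold up across libraries.

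**Figure D1:**
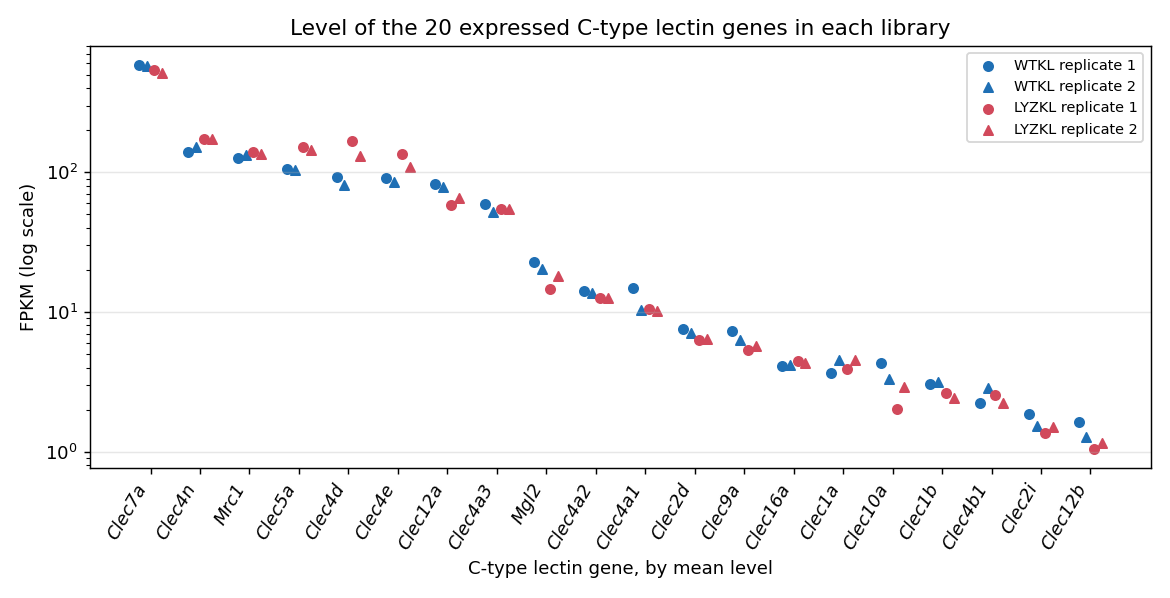
FPKM (log scale) of the 20 expressed C-type lectin genes, ordered by mean, with 1 point for each library (blue WTKL, red LYZKL, circle replicate 1, triangle replicate 2). Clec7a lies above all others at 517 to 584 FPKM, and the red points lie above the blue ones for Clec4n, Clec5a, Clec4d and Clec4e and below them for Clec12a and Mgl2.

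The comparison of LYZKL with WTKL asks whether these receptors differ when the marrow-derived cells carry Lyz2-Cre with the floxed STING gene. Tested by limma on log2(FPKM + 1) together with all 12691 genes that averaged 1 FPKM or more, 0 of the 20 expressed members passed an adjusted p of 0.05, against 0.292% of all genes tested (0.158% higher and 0.134% lower, 37 genes). At an unadjusted p under 0.05 there were 7 members, 4 higher and 3 lower in LYZKL, where 18.8% of all genes reached it (10.9% higher and 7.85% lower). The second test was limma-voom, which weighs each gene by the reads behind it, run on reads rebuilt from the FPKM values. It called 6 members, where it called 9.32% of all genes (5.8% higher and 3.52% lower). Clec4d, Clec4e, Clec5a and Clec4n were higher in LYZKL, and Clec12a and Mgl2 lower. The libraries of the groups did not overlap for 16 members, 6 above and 10 below, while 52.2% of all tested genes showed no overlap (27.8% above and 24.4% below). The members' log2 differences ranged from −0.47 to 0.76 with a median of −0.14, beside a median of 0.01 over all tested genes. Of the 20 differences, 7 were positive and 13 negative, where 6615 of all 12691 tested genes were positive and 6076 negative. In sorted bulk RNA, fewer cells of a type and less RNA per cell cannot be told apart, and this holds for each difference reported.

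**Figure D2:**
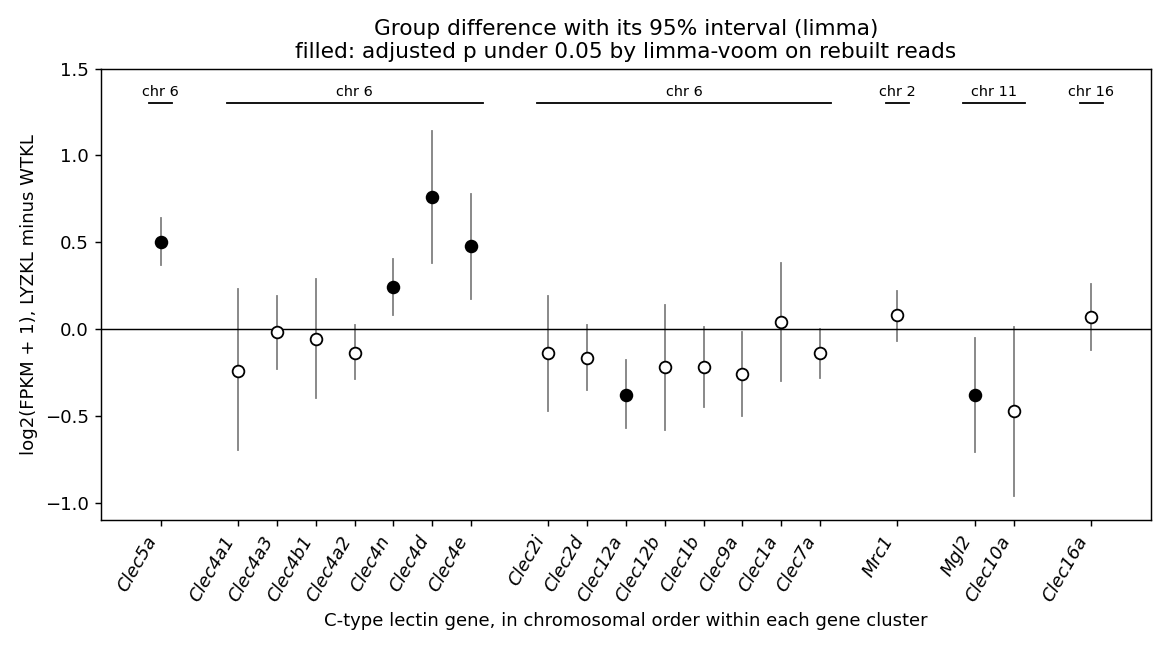
Difference between groups on the log2(FPKM + 1) scale (LYZKL minus WTKL) with its 95% interval from limma for the 20 expressed members, in chromosomal order within each gene cluster. Filled points passed limma-voom on rebuilt reads; the neighbours Clec4n, Clec4d and Clec4e lie above 0, whereas most points of the second cluster on chromosome 6 lie below it.

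The activating receptors held the largest differences on the higher side. Clec4d encodes MCL, which binds mycobacterial glycolipid and pairs with Mincle and the Fc receptor gamma chain. Its level was 92.1 and 81.2 FPKM in WTKL and 166 and 130.3 FPKM in LYZKL. Both LYZKL libraries lay above both WTKL libraries, and LYZKL 1 was the highest. The log2 difference was 0.76 (SE 0.14; adjusted p = 0.105 in limma and 8.90e-04 in limma-voom). Clec4e encodes Mincle, a receptor for the mycobacterial cord factor and for SAP130 released from dead cells. It read 90.3 and 84.4 FPKM in WTKL against 135 and 109.8 FPKM in LYZKL. The groups again did not overlap, with LYZKL 1 highest. The log2 difference was 0.48 (SE 0.11; adjusted p = 0.149 in limma and 0.00505 in limma-voom). Relative to Clec4e, Clec4d reached 1.02 and 0.962 in WTKL against 1.23 and 1.19 in LYZKL, so the ratio of these partners was higher in both LYZKL libraries.

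Clec5a encodes MDL-1, a receptor that signals through DAP12 and DAP10 and is known from severe viral and arthritic inflammation. Its values were 106 and 103 FPKM in WTKL and 152 and 145 FPKM in LYZKL. The gap between the groups was several times the spread within either, and the log2 difference was 0.50 (SE 0.05; adjusted p = 0.0615 in limma and 3.63e-04 in limma-voom). When limma was restricted to genes averaging 5 FPKM or more, Clec5a passed (adjusted p = 0.0302), as did 4.98% of the genes tested there. Clec4n, the Dectin-2 gene, whose product recognises fungal mannans, was at 139.9 and 151 FPKM in WTKL and 172 in each LYZKL library. The groups did not overlap, and the log2 difference was 0.24 (SE 0.06; adjusted p = 0.151 in limma and 0.0372 in limma-voom). Leaving out 1 library at a time leaves 1 library in a group, which is then assumed to vary as the other group does. On that assumption Clec4d, Clec4e and Clec5a passed limma-voom each time, and in limma none of them did (adjusted p from 0.109 to 0.322, 0.112 to 0.391 and 0.111 to 0.258). Clec4n did so only without WTKL 2 (adjusted p = 0.0276); its limma-voom adjusted p was 0.204 without WTKL 1, 0.18 without LYZKL 1 and 0.12 without LYZKL 2.

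Neutrophil marker RNA was also higher in LYZKL, as these 4 receptors were. Of the 14 neutrophil markers tested, 0 passed limma and 11 passed limma-voom as higher, against 5.8% of all genes. All 14 differences were positive, and their median was 0.98 on the log2 scale. S100a9, the most abundant, read 2061, 1562, 4860 and 3079 FPKM. LYZKL 1 was the highest library for it, as for Clec4d, Clec4e and Clec5a. Clec4n, at 139.9, 151, 172 and 172 FPKM, was instead higher in WTKL 2 than in WTKL 1. Ly6g, against which the cells were gated, was low, at 0.961, 0.418, 0.968 and 0.985 FPKM. Both LYZKL values lay above both WTKL values, by little over WTKL 1. The part of such cells in the receptor differences was not tested.

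To show the sequence in front of the members higher in LYZKL with the smallest limma-voom p-values, the 250 bases before the RefSeq start (build GRCm38.p6, written 5′ to 3′ on the gene's strand) are given for Clec4d, Clec4e and Clec5a. Capitals mark matches, on either strand, to 2 of the 6 short motifs searched: GAGGAA of the myeloid factor PU.1 and TTGCNNAA of C/EBP. The windows are chr6:123261857-123262106 (plus strand) for Clec4d, chr6:123289872-123290121 (minus strand) for Clec4e and chr6:40585806-40586055 (minus strand) for Clec5a.
Clec4d: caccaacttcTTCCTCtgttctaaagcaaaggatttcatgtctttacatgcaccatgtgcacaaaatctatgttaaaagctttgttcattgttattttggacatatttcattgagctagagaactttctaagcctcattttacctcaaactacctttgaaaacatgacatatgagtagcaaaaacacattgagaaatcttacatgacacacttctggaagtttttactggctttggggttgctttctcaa
Clec4e: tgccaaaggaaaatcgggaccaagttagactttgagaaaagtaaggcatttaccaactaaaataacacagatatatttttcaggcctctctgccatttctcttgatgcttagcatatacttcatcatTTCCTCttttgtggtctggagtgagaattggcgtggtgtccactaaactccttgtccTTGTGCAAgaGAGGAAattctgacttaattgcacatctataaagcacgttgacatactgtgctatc
Clec5a: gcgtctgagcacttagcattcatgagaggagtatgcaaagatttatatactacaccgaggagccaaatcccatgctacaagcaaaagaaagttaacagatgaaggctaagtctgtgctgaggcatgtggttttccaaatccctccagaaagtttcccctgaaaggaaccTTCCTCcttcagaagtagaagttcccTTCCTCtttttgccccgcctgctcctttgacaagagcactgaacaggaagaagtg
The Clec4d window holds 1 PU.1 match, 240 bases before the start. In Clec4e there are PU.1 matches 56 and 123 bases before the start, and a C/EBP match lies 66 bases before it. The Clec5a window has PU.1 matches 55 and 81 bases before the start. Windows were found for 17 of the 20 expressed members, 20 windows in all because some have more than 1 start. The PU.1 letters occur in 12 of these 20, against 23.3% of all 32851 windows of that length. That count takes in the Clec12a window and overlapping windows of Clec7a that hold the same match. The windows compared with are of all genes, expressed here or not, so an enrichment cannot be read from these shares. The C/EBP letters occur in the windows of Clec4e, Clec12a and Clec16a, against 9.56%. The NF-kB pattern of GGGA and TTCC set 2 bases apart (1.21% of all windows) occurs in 0 of the 20. The interferon element, GAAA and GAAA set 2 bases apart (2.98%), is present before Clec2d and Clec4b1, in Clec4b1 overlapping a PU.1 match. The STAT letters TTCNNNGAA (7.02%) are found before Clec4a2, and the AP-1 letters TGANTCA (6.75%) before Clec12a. For Clec12a the window lies wholly in exon sequence of a GENCODE transcript of that gene, and it is not shown. These matches describe letters only.

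The remaining activating members showed smaller differences. Clec7a, the most abundant member, was at 584 and 576 FPKM in WTKL and 538 and 517 FPKM in LYZKL. Both LYZKL values were the lower, but the log2 difference of −0.14 (95% interval −0.28 to 0.00) did not pass limma (adjusted p = 0.268) or limma-voom (adjusted p = 0.17). Clec9a, the receptor for exposed actin of dead cells that marks cross-presenting dendritic cells (cDC1), read 7.26, 6.33, 5.35 and 5.68 FPKM, without overlap of the groups (log2 difference −0.26, limma adjusted p = 0.246). The cDC1 markers beside it summed to 261, 269.7, 261 and 263 FPKM, of which Naaa alone was 147, 158, 147 and 153 FPKM. Xcr1, the defining one, was under 1 FPKM in every library. Among the 8 tested, 6 differences were negative and 2 positive. Of these 8, 0 passed limma and 3 passed limma-voom, against 9.32% of all genes. Irf8 (44.5, 45.2, 28.6 and 32.1 FPKM) and Itgae were lower and Cd24a was higher.

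Clec1b, the podoplanin receptor CLEC-2 of platelets, read 3.04, 3.15, 2.63 and 2.42 FPKM, again lower in both LYZKL libraries (log2 difference −0.22, limma adjusted p = 0.288). The 9 platelet markers summed to 4.24, 3.24, 5.74 and 4.90 FPKM, 7 of them averaged under 1 FPKM, and of the 2 tested 0 passed limma or limma-voom. Their part in the Clec1b values was not tested. Clec1b and Clec9a lie next to each other on the same strand and share 184 exon bases, 3.61% of Clec1b and 5.59% of Clec9a, so reads from these bases cannot be assigned to either. Clec4b1, the activating DCAR gene, was at 2.23, 2.84, 2.56 and 2.23 FPKM on 27 to 51 reads per library. Its groups overlapped, and the interval of the log2 difference (−0.40 to 0.29) spans 0.

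The 3 expressed ITIM receptors all pointed to the lower side. Clec12a encodes MICL, an inhibitory receptor for uric acid crystals and dead cells, and was the most abundant of them at 81.9 and 78.8 FPKM in WTKL and 58.1 and 65.1 FPKM in LYZKL. The groups did not overlap. The log2 difference was −0.38 (SE 0.07; adjusted p = 0.109 in limma and 0.00414 in limma-voom). In limma-voom it passed without WTKL 1, WTKL 2 or LYZKL 2 but not without LYZKL 1, the lowest library (adjusted p = 0.053). Clec4a2, the dendritic cell immunoreceptor DCIR, read 14.2, 13.6, 12.6 and 12.5 FPKM, and Clec12b 1.64, 1.27, 1.05 and 1.15 FPKM on 28 to 47 reads. Neither passed: the log2 differences were −0.14 (limma adjusted p = 0.305) and −0.22 (limma adjusted p = 0.449), although the libraries of both genes separated by group. Without WTKL 1 the Clec12b difference was −0.11. The DCIR relatives without an ITIM overlapped between groups. Clec4a3 was at 58.9, 51.7, 54.4 and 54.5 FPKM, with a log2 difference of −0.02 (95% interval −0.23 to 0.19). Clec4a1 was at 14.8 FPKM in WTKL 1 and at 10.3, 10.5 and 10.2 FPKM in the other libraries, so its log2 difference of −0.24 rests on WTKL 1. Without that library the Clec4a1 difference was 0.00, and without WTKL 2 it passed limma-voom as lower (adjusted p = 0.0181).

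Of the 3 expressed endocytic receptors, 0 passed limma and Mgl2 passed limma-voom as lower. Mrc1, which takes up mannosylated glycoproteins, read 126, 133, 139 and 134 FPKM, a log2 difference of 0.08 (95% interval −0.07 to 0.22; limma adjusted p = 0.506). Mgl2, the galactose-type lectin CD301b, was at 22.7 and 20.3 FPKM in WTKL and 14.6 and 18.1 FPKM in LYZKL. Both LYZKL libraries were below both WTKL libraries, and LYZKL 1 was the lowest. The log2 difference was −0.38 (SE 0.12; adjusted p = 0.222 in limma and 0.047 in limma-voom). This call was lost in limma-voom without WTKL 1 (log2 difference −0.31, adjusted p = 0.0732) and without LYZKL 1 (−0.24, adjusted p = 0.386). Clec10a, its neighbour and close relative CD301a, read 4.33, 3.29, 2.03 and 2.90 FPKM (log2 difference −0.47, SE 0.18; adjusted p = 0.272 in limma and 0.0965 in limma-voom). As similar genes, Mgl2 and Clec10a may share reads in a way the table does not show. Clec10a passed limma-voom only without WTKL 2 (adjusted p = 0.00533), and its limma difference was −0.29 without LYZKL 1. Set against Mrc1 in the same library, Mgl2 was at ratios of 0.180 and 0.153 in WTKL and 0.105 and 0.135 in LYZKL. The window before Mgl2, shown as that of the endocytic receptor lower in LYZKL, is chr11:70130107-70130356 (plus strand, GRCm38.p6, RefSeq), with the PU.1 letters in capitals 225 bases before the start.
Mgl2: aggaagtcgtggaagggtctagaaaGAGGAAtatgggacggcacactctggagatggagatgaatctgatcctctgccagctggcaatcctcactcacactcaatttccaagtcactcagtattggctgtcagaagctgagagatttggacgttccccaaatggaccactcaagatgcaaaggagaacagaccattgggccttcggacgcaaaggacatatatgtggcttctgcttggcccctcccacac

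Genes known to respond to IL-4 were read beside Mgl2. Of 16 tested, 0 passed limma and 4 passed limma-voom as lower: Chil3, Ccl17, Ccl24 and Msr1. Over all genes limma-voom called 3.52% lower. Of the 16 differences, 12 were negative and 4 positive. Among the positive ones, Il4ra (57.6, 55.9, 63.7 and 62.7 FPKM) and Tgm2 (182, 178, 201 and 194 FPKM) were higher without overlap. The median log2 difference of all 16 was −0.14, against 0.01 over all genes. Ccl24, an eosinophil chemokine, was at 19.7, 23.0, 11.9 and 10.6 FPKM, without overlap of the groups. Arg1, the arginase of the same program, read 677, 605, 563 and 601 FPKM (limma adjusted p = 0.441). Dendritic cell markers were given as other possible sources of galactose-type lectin RNA. The cDC2 markers summed to 487, 499, 465 and 468 FPKM, with Zbtb46 and Tnfsf4 under 1 FPKM. Most of that sum was Klf4 (215, 222, 195 and 206 FPKM), Itgax (126, 125, 127 and 123 FPKM) and Sirpa (123, 130.1, 128 and 121 FPKM). The 9 mature dendritic cell markers summed to 69.3, 56.9, 41.2 and 53.5 FPKM, with Nudt17 under 1 FPKM. All 7 tested cDC2 markers had negative differences (median −0.12), 0 passed limma, and Cd1d1 (13.9, 13.9, 9.34 and 9.66 FPKM) passed limma-voom as lower. Of 8 mature dendritic cell markers tested, 0 passed limma, and Ccl17 and Apol7c passed limma-voom as lower. The lists share genes: Ccl17, Ccl22 and Socs2 are also on the IL-4 list, as is Irf4 of the cDC2 list. Ccl17 (39.1, 34.5, 24.8 and 28.1 FPKM) is thus the same call in both. The part of dendritic cells in the Mgl2 difference was not tested.

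The ligands of NK cell receptors and the members outside these classes were low. Clec2d, which encodes Clr-b, the ligand of the inhibitory NK receptor Nkrp1b, read 7.52, 7.03, 6.31 and 6.43 FPKM (log2 difference −0.17, limma adjusted p = 0.299). Clec2i, encoding Clr-g, read 1.85, 1.52, 1.35 and 1.51 FPKM (log2 difference −0.14, limma adjusted p = 0.593). In both genes the LYZKL libraries lay below the WTKL libraries, the smallest gap being that of Clec2i, whose difference was −0.05 without WTKL 1. Klrb1b, the receptor gene that pairs with Clec2d, was itself at 10.6, 9.79, 6.03 and 7.15 FPKM (adjusted p = 0.0972 in limma and 0.00718 in limma-voom). Clec1a, a receptor for fungal melanin, was at 3.64, 4.55, 3.90 and 4.56 FPKM and its groups overlapped. Clec16a, which despite its name acts in endosome and mitochondrial turnover and is no sugar receptor, was at 4.13, 4.18, 4.49 and 4.32 FPKM (log2 difference 0.07, limma adjusted p = 0.665).

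Members under 1 FPKM rested on at most 31 reads in any library and were not tested. Their means ran from 0.00650 FPKM for Clec2e to 0.876 FPKM for Cd209a, just below the limit, whereas Clec12b at 1.28 FPKM was just above it. Cd209a, a mouse relative of the dendritic cell receptor DC-SIGN, had 30, 16, 20 and 31 reads. The 7 Cd209 genes were all under 1 FPKM, and 6 of them had a mean of at most 0.268 FPKM. Clec4f, a marker of Kupffer cells of the liver, had 1, 1, 1 and 0 reads. Clec14a, a gene of endothelial cells, had 14, 19, 12 and 20 reads. The groups did not overlap in 3 of the 18, each with LYZKL lower, where 27.9% of all rows above 0 and averaging under 1 FPKM did not overlap (13.9% with LYZKL lower). These were Clec2g (43 against 28 reads summed by group), Clec4a4 (23 against 15) and Cd209e (4 against 0). Per library total, the LYZKL to WTKL ratio was 0.718 for Clec2g (95% interval 0.429 to 1.18) and 0.719 for Clec4a4 (0.349 to 1.44), intervals that are exact binomial, include 1 and cover counting error only. Clec2e, Clec4g and Cd209b had 0 reads in both WTKL libraries and 1 to 3 reads in LYZKL in total. A count of 0 allows up to 3 reads per library, which for these genes is 0.0533 to 0.0924 FPKM, so a difference was not detectable at this depth.

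By position, 23 of the 38 members lie on chromosome 6. One cluster (GRCm38 chromosome 6, 122921848 to 123289870) holds 9 members, 7 of them expressed. At its distal end the neighbours Clec4n (123229843 to 123247021), Clec4d (123262111 to 123275265) and Clec4e (123281789 to 123289870) had positive differences, while Clec4a1, Clec4a3, Clec4b1 and Clec4a2 had negative ones that did not pass. The second cluster (128887588 to 129472779), within the NK gene complex, holds 11 members, 8 of them expressed. There 7 differences were negative and only that of Clec1a, at 0.04, was positive, where 6076 of all 12691 tested genes were negative. Clec12a (129342691 to 129365303) was the one of the 8 to pass limma-voom. Clec5a lies apart, at 40574894 to 40585821 on the minus strand of chromosome 6. Mgl2 (70130329 to 70137550) and Clec10a (70156197 to 70170834) are neighbours on chromosome 11 with negative differences. Mrc1 is on chromosome 2, and the 7 Cd209 genes with Clec4g fill a cluster on chromosome 8 with 0 expressed members. The signs of Clec4a1, Clec4a3, Clec4b1 and Clec1a turned or reached 0 when some single library was left out.

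The makeup of the family was compared as shares of its summed FPKM, which was 1372, 1341, 1485 and 1406. The 8 activating receptors made up 74.7% and 75.2% of the sum in WTKL and 79.0% and 77.2% in LYZKL. Receptors with an ITIM made up 7.17% and 7.04% in WTKL and 4.87% and 5.64% in LYZKL. Both shares separated the groups, the first upward and the second downward. The ITIM sum (98.4, 94.5, 72.4 and 79.2 FPKM) was mostly Clec12a, at 81.9, 78.8, 58.1 and 65.1 FPKM. Within the activating class the balance differed too: Clec7a alone held 42.6% and 43.0% of the family's FPKM in WTKL and 36.2% and 36.8% in LYZKL. Clec5a reached 0.182 and 0.178 of the Clec7a level in WTKL against 0.282 and 0.281 in LYZKL. The ratio of Clec4d to Clec12a was 1.12 and 1.03 in WTKL and 2.86 and 2.00 in LYZKL. This pair sets the activating member with the highest log2 difference against the ITIM member with the lowest. Of the 8 activating members, 4 had positive and 4 negative differences. Endocytic receptors held 11.3%, 11.7%, 10.6% and 11.2%, and ligands of NK cell receptors 0.759%, 0.723%, 0.553% and 0.632%. These shares too were lower in LYZKL without overlap, that of the endocytic receptors by little. The shares of the DCIR relatives without an ITIM and of the members outside these classes overlapped between groups. With 2 libraries against 2 an exact permutation test cannot give a two-sided p below 0.333, so these shares and ratios are descriptions.

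**Figure D3:**
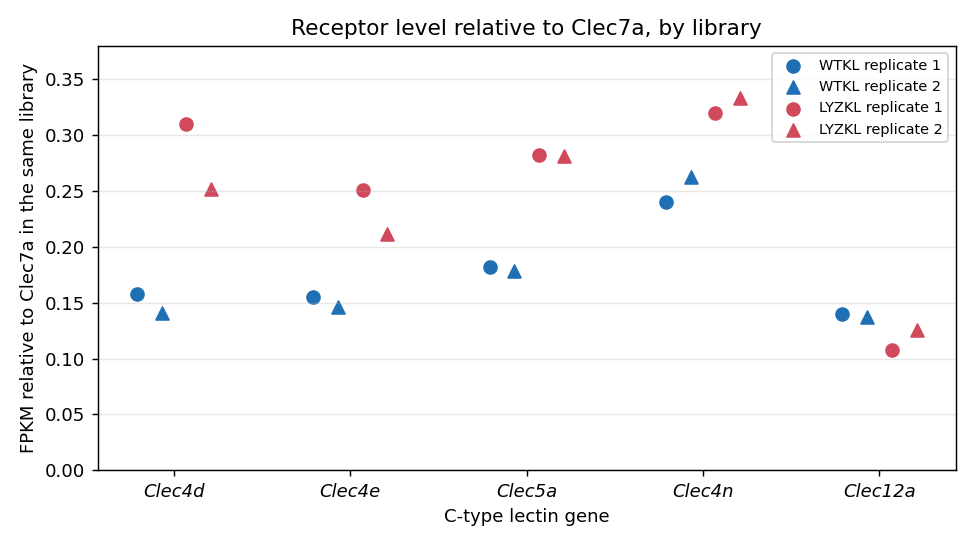
FPKM of 5 receptors divided by the Clec7a FPKM of the same library (vertical axis, from 0), 1 point for each library (blue WTKL, red LYZKL, circle replicate 1, triangle replicate 2). For Clec4d, Clec4e, Clec5a and Clec4n both red points lie above both blue points, as with Clec5a at 0.282 and 0.281 against 0.182 and 0.178, whereas for Clec12a they lie below.

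Downstream of the receptors, the adaptor genes Fcer1g and Tyrobp were abundant in every library. Of 29 adaptor and signalling genes tested, 0 passed limma, and their median log2 difference was 0.07. In limma 11 had an unadjusted p under 0.05, where 18.8% of all genes did. Limma-voom called Syk and Vav1 higher and Nfkb1, Itpr1 and Itpr3 lower. Over all genes it called 5.8% higher and 3.52% lower. Fcer1g, the Fc receptor gamma chain shared by Clec4n, Clec4d and Clec4e, read 214, 201, 208 and 200.1 FPKM, with overlapping groups. Tyrobp, the DAP12 adaptor of Clec5a, was at 239, 233, 272 and 254 FPKM (log2 difference 0.16; limma adjusted p = 0.266). Hcst, the DAP10 adaptor, was at 2.33, 3.15, 4.80 and 5.59 FPKM (log2 difference 0.73; adjusted p = 0.114 in limma and 0.0639 in limma-voom). The kinase gene Syk read 76.4, 72.7, 94.0 and 86.9 FPKM (log2 difference 0.27; adjusted p = 0.138 in limma and 0.0162 in limma-voom). Card9, which links Syk to NF-kB, was at 48.0, 45.3, 47.9 and 50.4 FPKM, with overlapping groups.

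On the inhibitory side, 0 of 10 genes passed limma, and limma-voom called Dok3 higher and Cblb lower. Limma-voom called 5.8% of all genes higher and 3.52% lower. Ptpn6, which encodes Shp1, the phosphatase that ITIM receptors recruit, was at 234, 239.6, 261 and 262 FPKM (limma adjusted p = 0.221). Cblb, a ubiquitin ligase that limits Dectin signalling, read 6.55, 5.80, 4.58 and 4.51 FPKM (adjusted p = 0.135 in limma and 0.0139 in limma-voom). Of the ligands and partner receptors, 7 of 11 were tested, 0 passed limma and Klrb1b alone passed limma-voom. Sap130, the nuclear protein gene whose product Mincle binds, was at 9.24, 9.12, 9.56 and 8.00 FPKM, and Pdpn, the podoplanin gene whose product Clec1b binds, at 38.5, 41.9, 40.8 and 41.8 FPKM. Neither gene separated the groups without overlap.

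Cytokine and effector genes that C-type lectin signalling is known to induce spanned log2 differences from −1.06 (Il12b) to 1.20 (Il23a). Of 17 tested, Il23a passed limma as higher, where 0.158% of all genes passed as higher. Limma-voom called 9 higher and 2 lower, against 5.8% of all genes higher and 3.52% lower. The median of the list was 0.41 (log2). Il23a, a subunit of IL-23, rose from 75.8 and 72.7 FPKM in WTKL to 183 and 162 FPKM in LYZKL (log2 difference 1.20; limma adjusted p = 0.0452). The neutrophil chemokine gene Cxcl2 was at 875, 829, 2023 and 1705 FPKM and the inflammasome gene Nlrp3 at 148, 138, 263 and 228 FPKM, without overlap in either. In limma their adjusted p-values were 0.0579 and 0.0641, and in limma-voom 2.96e-05 and 1.13e-04. Il12b went the other way, at 22.0, 10.2, 6.83 and 6.58 FPKM, and Il10 read 5.18, 3.64, 4.92 and 4.29 FPKM with overlapping groups. These genes also respond to many other receptors. The neutrophil markers, with 14 of 14 differences positive, a median of 0.98 and sums of 2674, 2114, 6213 and 4128 FPKM, were also higher in LYZKL. Their part in the differences of this list was not tested. Genes with a C-type lectin domain outside the naming rule gave 0 of 19 past limma and 5 past limma-voom, Klra17 and Cd93 higher and Cd72, Klrk1 and Vcan lower, with a median of −0.12.

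**Figure D4:**
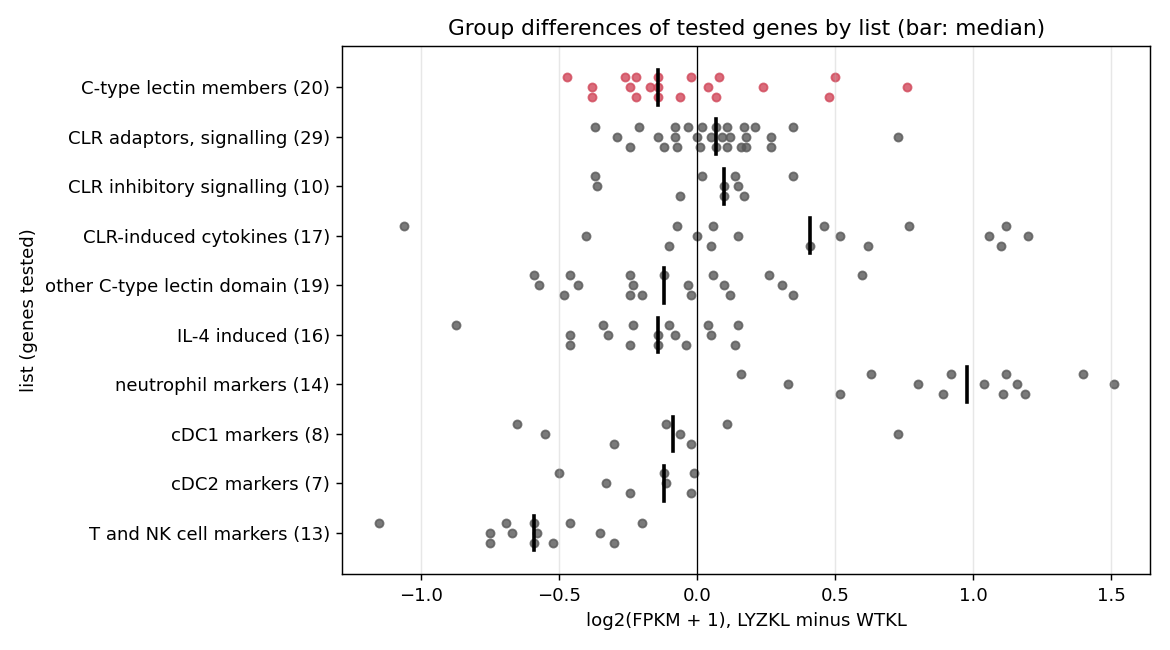
Difference between groups on the log2(FPKM + 1) scale (LYZKL minus WTKL) of each tested gene, by list, with the number of genes in brackets; 1 point is 1 gene, the short bar is the list's median, and points are spread vertically only for legibility. The C-type lectin members centre at −0.14, the cytokine list at 0.41 and the neutrophil markers at 0.98.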

How the data were processed

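The authors deposited 1 table of FPKM values with 27433 rows and 1 column for each of the 4 libraries. Per the labels' protocols, poly(A) RNA was sequenced as paired reads from libraries that do not mark strand, so overlapping genes cannot be told apart. Per the submitters' processing notes, the tools were Cell Ranger 6.1.2, featureCounts 2.0.0 and HISAT2 2.0.5, with mm10; the annotation is not given in the sources used. The table's upper-case names are printed in mouse style. All 38 members matched GENCODE M21, whose coordinates are given.

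LYZKL was compared with WTKL by limma 3.58.1 (R 4.3.3) on log2(FPKM + 1), a scale that understates changes of low genes, with trend, for the 12691 genes averaging 1 FPKM or more. Tests were two-sided, with Benjamini-Hochberg adjustment over all of them and a threshold of 0.05. From the steps of low values, whole reads were rebuilt for 99.88% of the tested genes (15466117 to 22867836 reads per library), of which 10010 fit the annotated exon length to within 0.05 read. For the other 2666, the length itself was found by a search from 50 to 100000 bases, to within 0.003 read. Limma-voom used these reads. Tested members held 27 to 34771 reads per library, and all 20 gave whole reads at the annotated length. The code was tested on simulated data.

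Every member averaging 1 FPKM or more was named, grouped by role, and lower ones where they mark another cell type or are singled out by their counts. Members, lists and tests were chosen with earlier results of these data known. Genes of the other lists were named after their values were seen. Alternatives were other pseudocounts, filters, scalings, a replicate block, limma-voom and leaving out each library; those for the related lists and the leave-one-out fits of limma-voom were added after seeing the data. Marker lists also covered alveolar and interstitial macrophages, monocytes, plasmacytoid dendritic, B, endothelial, epithelial, stromal and mast cells. Promoter windows are from RefSeq (GRCm38.p6).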

Additional observations from a re-analysis of the deposited data

How the results depend on the processing

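Of 333 member values under alternatives, 295 kept direction and side of the threshold, 27 passed it in the same direction, and 11, in 4 members, turned or reached 0. All 11 came from leaving out a library. Over these fits the log2 difference of Clec4a3 ranged from −0.11 to 0.07 in limma and to 0.08 in limma-voom, that of Clec4a1 from −0.48 to 0.00 and from −0.52 to 0.00, that of Clec4b1 from −0.18 to 0.07 and from −0.25 to 0.09 (0.01 in limma without LYZKL 2), and that of Clec1a from −0.09 to 0.17 and from −0.11 to 0.21 (without LYZKL 2, −0.05 and −0.09).

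The 37 genes called by limma sit at the edge of the threshold: it called 0 with no filter, 0 without the trend and 0 to 0 leaving out 1 library, but 340 above 5 FPKM. Limma-voom called 1181, and without WTKL 1, WTKL 2, LYZKL 1 or LYZKL 2 it called 1272, 1048, 437 and 1085. Among the members, the limma count of 0 became 1 above 5 FPKM and stayed at 0 to 0 leaving out 1 library; in limma-voom it was 6, and in the same order of left-out libraries 4, 8, 3 and 5. Over the related lists, limma called 2 genes, 0 with no filter or without the trend, 0 to 0 leaving out 1 library and 11 above 5 FPKM, and limma-voom 30, or 27, 26, 10 and 23 in that order. At an unadjusted p under 0.05, limma gave 7 members, 12 with median scaling, 11 with quantile normalization, 8 with no filter and 4 to 7 leaving out 1 library.

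The members' median of −0.14 was −0.07 with a pseudocount of 5 and −0.02 with no filter, where all 38 members enter, and −0.17 to −0.10 leaving out 1 library (to −0.18 in limma-voom). With a limit of 5 FPKM, 13 members counted as expressed. Beyond the genes and samples that enter each fit, the cause was not tested.

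With the replicate number as a block, limma called 0 genes, 0 members and 0 related-list genes, and 5 members had an unadjusted p under 0.05. The numbers are shared names only: deviations of same-numbered libraries from their group means correlated at 0.16 across the tested genes. Members under 1 FPKM are limited by depth, at no more than 31 reads in any library.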

Other observations

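Other marker lists of cells that could enter the sort gave these values, none of them tied to a receptor here. The 12 alveolar macrophage markers summed to 2356, 2895, 2329 and 2443 FPKM (WTKL 1, WTKL 2, LYZKL 1, LYZKL 2), although Siglecf itself, by which cells were sorted as low, was at 6.05, 6.80, 15.6 and 15.6 FPKM (limma adjusted p = 0.0452). The 8 interstitial macrophage markers summed to 106, 105, 87.1 and 90.5 FPKM and the 9 B cell markers to 14.6, 14.4, 8.66 and 11.3 FPKM. The 10 monocyte markers summed to 291, 246, 352 and 321 FPKM (Nr4a1 alone 140.1, 131, 209 and 185), with 6 of 10 differences negative and 4 positive. Of the 10, 0 passed limma. Limma-voom called Nr4a1, Ace and Treml4 higher and Vcan lower, where it called 5.8% of all genes higher and 3.52% lower. Plasmacytoid dendritic cell markers summed to 51.2, 53.0, 42.8 and 45.7 FPKM, most of it Bst2, with 5 of 8 averaging under 1 FPKM. Endothelial markers summed to 16.9, 17.9, 18.7 and 20.9 FPKM, epithelial and tumor markers to 39.7, 50.8, 40.8 and 39.1 FPKM, stromal markers to 5.70, 5.46, 4.53 and 3.96 FPKM and mast cell and basophil markers to 0.240, 0.331, 0.270 and 0.479 FPKM.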
